A study of Zea mays with 21 samples.

Results

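The genes described here are the 100 protein-coding genes, of 23175 listed with values, whose mean expression in maize root tips stood out most at 2 h of waterlogging over every later time point. They were chosen by measured values. For each gene the mean TPM (a transcript level scaled by gene length and by the total of a library) plus 1 at each time point was divided by the mean TPM plus 1 before waterlogging and put on the log2 scale, which gives a value called L for each time point. Genes with L above 0.5 at 2 h were kept, which were 2281 genes, and ranked by L at 2 h minus the highest L among the 5 later time points, called the rank value. The rank value was above 0 for 387 genes, and the 100 highest make up the members. Every library and every difference from WS_0h entered this choice, so the values below describe the members and are no independent evidence that they peak at 2 h.

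Root tips came from seedlings of the inbred line B73 at the second leaf stage, with no transgene or mutation named in the labels. WS_0h was sampled before waterlogging, and WS_2h, WS_4h, WS_6h, WS_8h, WS_10h and WS_12h after 2, 4, 6, 8, 10 and 12 h with a layer of water standing over the substrate. Each of the 7 time points had 3 libraries, 21 in all, and each library mixed 10 tips of primary roots. Waterlogging began at the same morning hour for all plants and no unstressed plants were sampled at later hours, so the hours of waterlogging and the time of day cannot be told apart. A root tip holds dividing, elongating and differentiating cells, and in mixed tissue a lower TPM from fewer cells of a type and from less RNA per cell cannot be told apart.

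Waterlogged roots run short of oxygen, because gases move slowly through water. Plant cells under low oxygen turn to glycolysis and fermentation to keep making ATP, and transcription factors of the ethylene response factor family that are stable only when oxygen is scarce switch on the enzymes of that pathway. Ethylene builds up around and within submerged roots, and shortage of energy slows growth and protein synthesis. Transient early genes in stressed plant tissue are commonly regulators, signalling proteins and their inhibitors, but which of these the 100 members encode cannot be said here. The gene identifiers were those of the B73 RefGen_v4 annotation, 0 of the 100 members and 0 of the 23175 listed genes were matched to the RefSeq gene table, and no member is among the genes named in the study's text, so the members are called by their identifiers and no role is given to any of them. For the same reason the root tip label was not checked against marker genes.

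The libraries were alike in median-ratio scale factors, which ran between 0.965 and 1.06. The listed TPM varied more, with sums of 534645 to 689689 per library. These were 689689, 658187 and 576959 in the WS_2h libraries, against 546472, 548884 and 575678 in the WS_0h libraries and 554204, 546858 and 547121 in the WS_4h libraries. Read depth cannot be read from TPM, so no counting error is given and the precision of each value rests on the 3 libraries. All 100 members passed the filter on low values used for the fit, a mean above 1 TPM over the 21 libraries, which left 22783 genes, and 77 had a mean above 5 TPM. Only 10 of their 2100 values, in 5 members, were listed at 0, and none of those was at WS_0h, WS_2h or WS_10h.

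Within WS_2h the libraries did not carry the pattern evenly. WS_2h replicate 2 had the highest TPM of the 3 WS_2h libraries in 91 of the 100 members and the highest TPM of all 21 libraries in 90, while over all genes tested it was highest of the 3 in 37.1%. The median member stood above the WS_0h mean by 0.73 in replicate 1, 1.34 in replicate 2 and 0.69 in replicate 3 on the log2(TPM + 1) scale, against -0.01, 0.00 and -0.01 for the median of all genes tested. The members were also more variable than all genes tested at that time, with a median SD of 0.43 over the WS_2h libraries, against 0.26. At WS_0h it was 0.28 in members and 0.16 in all genes tested. The rule uses the mean of the 3 WS_2h libraries, which 1 very high library can raise, so the choice itself can raise the spread at WS_2h. Among the other 287 genes with a positive rank value replicate 2 was highest in 224 (78.0%). What set replicate 2 apart in these genes was not tested. The counts of calls that use WS_2h are given with and without it.

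The members showed a high value at WS_2h, a low one at WS_4h and levels between these afterwards. The median L of the 100 was 0.94, -0.94, 0.12, -0.27, -0.05 and -0.18 over the 6 waterlogged time points in order, while the median of all genes tested stayed between -0.08 and 0.01. The rule asks for later values well under that of WS_2h, and with an L at WS_2h of 1 or less in 52 members it draws later values towards or below WS_0h. At WS_4h 76 members were below WS_0h, beside 51.5% of all genes tested, and 63 had their lowest mean of all 7 time points there, beside 39.8%. The next highest later time was WS_6h for 59 members, WS_10h for 16, WS_8h for 11, WS_4h for 7 and WS_12h for 7. It was not counted over all genes tested, so it is not known whether the members differ from them in this. Of all genes tested, 25.5% had their highest L at WS_2h and 38.0% at WS_4h.

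**Figure D1:**
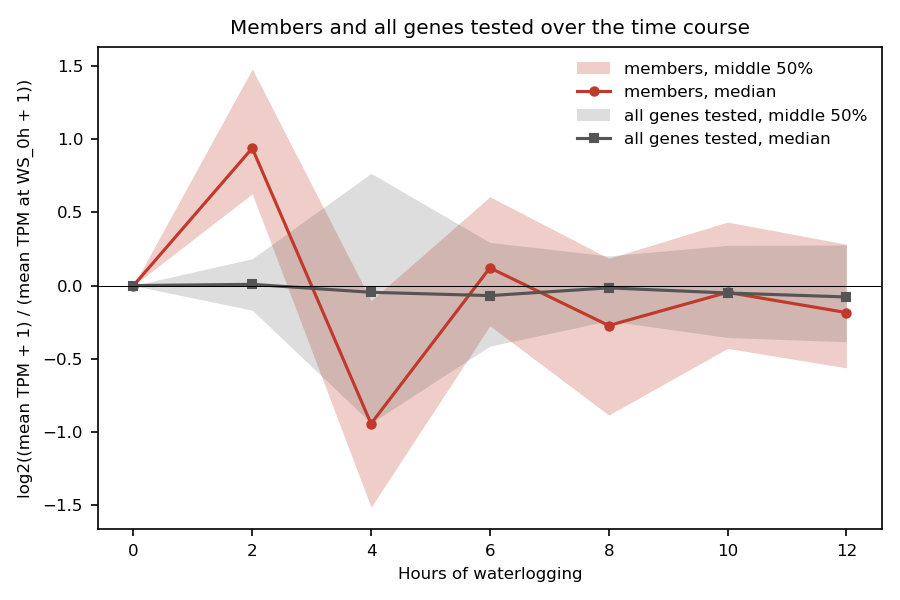
Hours of waterlogging on the x axis against log2((mean TPM + 1) / (mean TPM at WS_0h + 1)) on the y axis, with lines for medians and bands for the middle 50% of the 100 members and of all genes tested. The member median is 0.94 at WS_2h and -0.94 at WS_4h and lies between 0.12 and -0.27 from WS_6h on, while the median of all genes stays near 0.

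Levels of the members covered a wide range. Mean TPM was 2.79 to 1818 at WS_2h (median 24.6), against 0.20 to 204.6 at WS_0h (median 9.41), and the median of all genes tested was 7.62 TPM at WS_2h and 7.49 TPM at WS_0h. L at WS_2h ran between 0.50 and 7.47, was above 1 in 48 members, above 2 in 16 and above 3 in 11. Summed over the members, TPM reached 9377, 12890 and 8601 in the WS_2h libraries, which was 1.36 to 1.96% of the listed TPM, against 1866, 2277 and 2344 (0.34 to 0.41%) in the WS_0h libraries. The 5 most abundant members held 54.0% of the WS_2h sum. The other 95 summed to 3980, 6164 and 4068 TPM at WS_2h, against 1531, 1922 and 1967 TPM at WS_0h, and all WS_2h libraries lay above all WS_0h libraries in each of these sums. At WS_4h the other 95 summed to 1539, 1498 and 1331 TPM, the first within the range of WS_0h and the others below it.

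**Figure D2:**
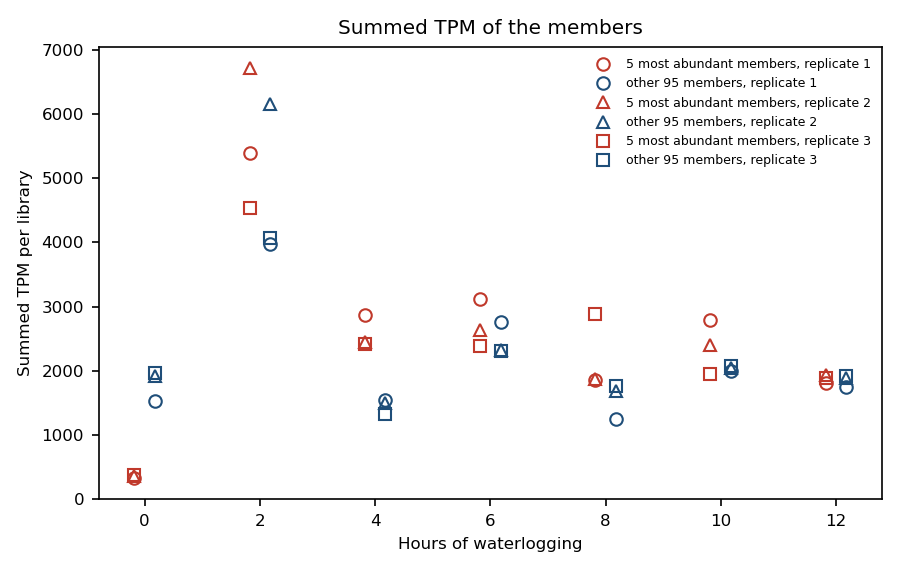
Hours of waterlogging on the x axis against TPM summed per library on the y axis, in red for the 5 most abundant members and in blue for the other 95, with a marker shape for each replicate. WS_2h replicate 2 is the highest point of each colour, at 6725 and 6164 TPM, and the blue points lie at 1331 to 1539 TPM at WS_4h, against 1531 to 1967 TPM at WS_0h.

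Each time point was compared with WS_0h, and each later time point with WS_2h, by limma on log2(TPM + 1) over all genes and libraries, and calls required a log2 difference beyond 1 in size with p under 0.05 after Benjamini-Hochberg adjustment. Since the rule had used the same differences, the counts are given beside the share of all tested genes called and nothing is read from the contrast between them. At WS_2h 42 of the 100 members were called higher than at WS_0h, where 4.18% of all genes tested were. The count was 29 without WS_2h replicate 2, 35 without WS_0h replicate 1, and between 36 and 47 in every other fit. In 71 members all 3 libraries of WS_2h were above all 3 of WS_0h, as in 12.5% of all genes tested. All 3 WS_2h libraries were above the other 18 in 48 members, as in 0.483% of all genes tested.

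At WS_4h 46 members were called lower than at WS_0h, beside 23.7% of all genes tested, and 14 were called higher, beside 19.3%. Of the members 90 were called lower at WS_4h than at WS_2h, beside 23.1%, and 81 were without WS_2h replicate 2. In 95 members the WS_4h libraries all lay below the WS_2h libraries, as in 37.3% of all genes tested. At WS_6h 0 members were called lower than at WS_0h by limma, beside 6.97% of all genes tested. An unadjusted limma p under 0.05 in that direction was reached by 6 members, and the share of all genes was not computed. At the same time 17 members were called higher than at WS_0h (9.09%) and 26 were called lower than at WS_2h (2.41%). Without WS_2h replicate 2 this last count was 15. The median member at WS_6h differed from WS_0h by 0.14 on the log2 scale, beside -0.07 for all genes tested.

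From WS_8h on, fewer members were called lower than WS_0h than at WS_4h, and the same held for all genes tested. At WS_8h 19 were called lower (3.79% of all genes tested), 10 higher (4.3%) and 72 lower than at WS_2h (3.58%), or 60 without WS_2h replicate 2. The count of 19 was 11 without WS_8h replicate 1, which was the lowest of the WS_8h libraries in 70 members and in 42.1% of all genes tested, and 12 without WS_0h replicate 2. At WS_10h 5 were called lower (5.94%), 15 higher (7.86%) and 53 lower than at WS_2h (2.46%). These 5 became 3 without WS_10h replicate 2, and the 53 became 31 without WS_2h replicate 2. At WS_12h 6 were called lower (5.78%), 12 higher (8.06%) and 63 lower than at WS_2h (2.9%), or 48 without WS_2h replicate 2. In all, 52 members were called lower than WS_0h at some later time, beside 26.2% of all genes tested, and 30 of them at WS_4h and at no other later time, beside 16%. Neither a higher nor a lower call at any later time was made for 31 members, beside 50.9% of all genes tested.

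**Figure D3:**
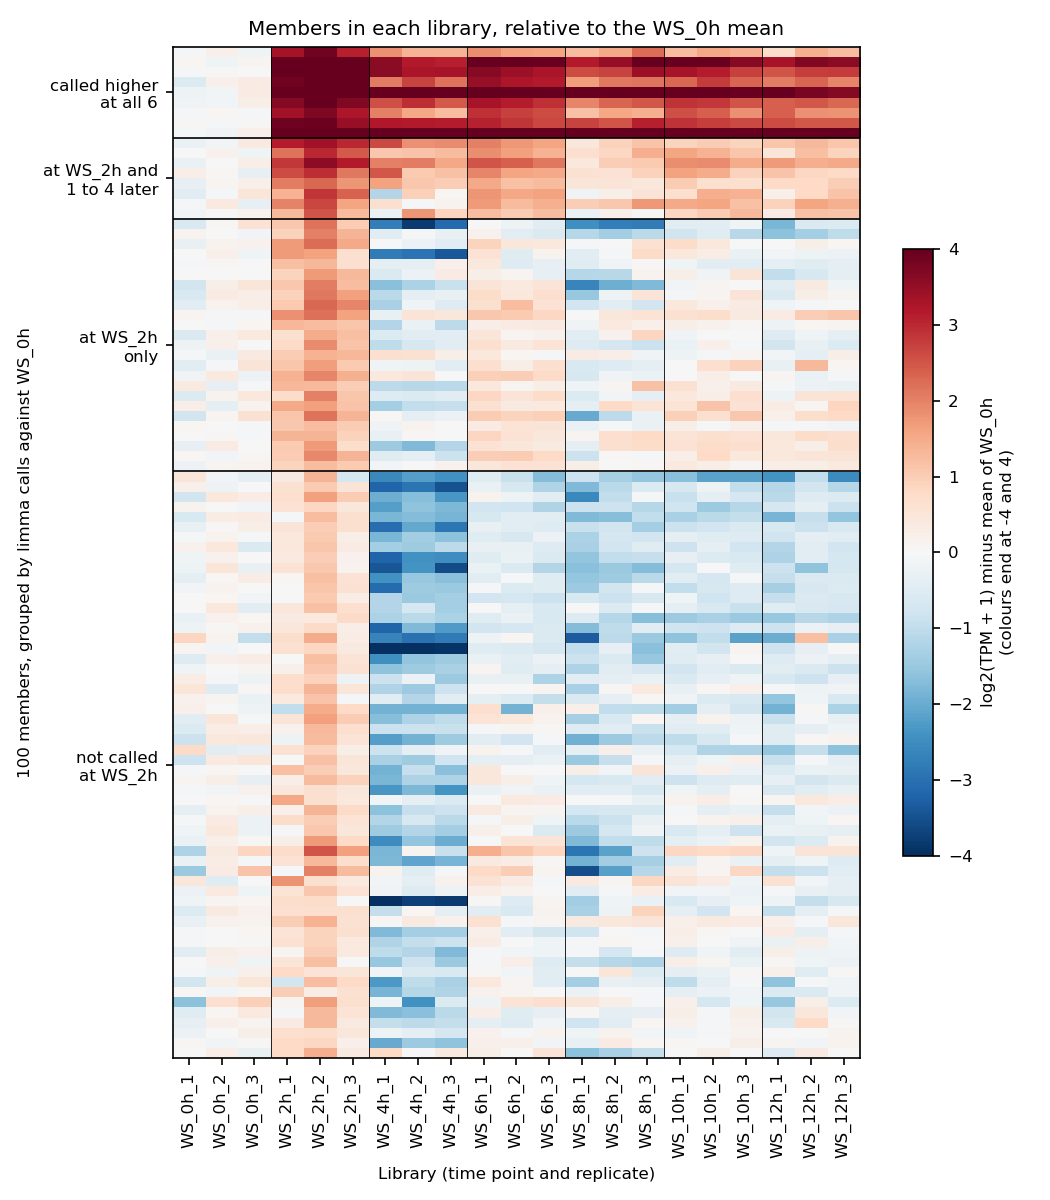
Each row is a member and each column a library in time order, coloured by log2(TPM + 1) minus the WS_0h mean, with rows grouped by their calls against WS_0h (9, 8, 25 and 58 members downwards) and sorted by rank value within a group. The WS_2h columns are mostly red, replicate 2 most so, and the WS_4h columns are blue in most of the 58 members at the bottom and red in the 9 at the top.

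By their calls the members fell into 4 profiles. The shares of all genes tested with the same calls are given beside them, and nothing is read from these, since the rule used the same differences. In the first, 9 members were called higher than WS_0h at all 6 waterlogged time points, beside 2.11% of all genes tested, so that they were sustained genes with a peak at WS_2h and not transient ones. The same 9 had this profile without WS_2h replicate 2. They were Zm00001d002158, Zm00001d002159, Zm00001d002160, Zm00001d026390, Zm00001d013909, Zm00001d029806, Zm00001d006170, Zm00001d010751 and Zm00001d031926, of which the last 3 are named in detail only because of their profile, after their values were seen. Their L at WS_2h was between 3.45 and 7.47, and their median L was 3.16 at WS_4h and 2.52 at WS_12h. In 8 of the 9, all but Zm00001d013909, every WS_2h library was above the other 18 libraries.

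The most abundant of these carried 3 consecutive identifiers. Zm00001d002158 had 1501, 2049 and 1286 TPM in the WS_2h libraries, against 44.7, 37.5 and 45.9 TPM in the WS_0h libraries, a log2 difference of 5.18 (SE 0.24, n = 3 each). It then had 526, 396 and 376 TPM at WS_4h, 877, 703 and 680.1 TPM at WS_6h, 391, 497 and 755 TPM at WS_8h, 901, 705 and 537 TPM at WS_10h and 431, 568 and 534 TPM at WS_12h. All later libraries were thus below those of WS_2h and above those of WS_0h, and the order of the later time points was not monotonic. Zm00001d002159 had 1192, 1632 and 1076 TPM in the WS_2h libraries, against 55.8, 61.0 and 60.2 TPM in the WS_0h libraries, a log2 difference of 4.42 (SE 0.21). Its later values were 726, 578 and 594 TPM at WS_4h, 743, 641 and 576 TPM at WS_6h, 363, 391 and 639.6 TPM at WS_8h, 582, 529 and 398 TPM at WS_10h and 344, 409 and 417 TPM at WS_12h. Zm00001d002160, the member with the highest TPM at WS_2h, had 1962, 2012 and 1479.8 TPM there, against 136, 124 and 134 TPM in the WS_0h libraries, a log2 difference of 3.77 (SE 0.17). This gene declined less after its peak, with means of 1186, 974, 915, 901 and 760.2 TPM at WS_4h, WS_6h, WS_8h, WS_10h and WS_12h.

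The genes on either side of this run also had high L at WS_2h without being members, because they were higher still at WS_4h. Zm00001d002157 had an L of 1.96 at WS_2h and 2.17 at WS_4h, from means of 0.57, 5.12 and 6.10 TPM at WS_0h, WS_2h and WS_4h. Zm00001d002161 had an L of 4.57 at WS_2h and 5.37 at WS_4h, from means of 18.6, 464 and 809 TPM at the same 3 times. A run of 5 consecutive identifiers thus shared the difference from WS_0h but not the time of the highest mean. Whether these genes are near-identical copies is not given in the sources used here. The study states that TPM were computed from uniquely mapped reads, so reads matching several copies would not be counted. How far that would lower their values is not known. The only other members with identifiers within 5 of each other were Zm00001d026028 and Zm00001d026029, and their neighbour Zm00001d026030 had an L of -0.14 at WS_2h.

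The largest differences, those of Zm00001d013909 and Zm00001d026390, were in genes at a low level before waterlogging. This was no general order. Zm00001d002158 differed by 5.18 from a WS_0h mean of 42.7 TPM, and Zm00001d018853 by 1.88 from 0.24 TPM. Zm00001d013909 had 225, 446 and 369.9 TPM in the WS_2h libraries, against 0.89, 0.75 and 1.24 TPM in the WS_0h libraries, and a log2 difference of 7.42 (SE 0.27), the largest among the members. Its values afterwards were 189, 315 and 200.1 TPM at WS_4h, 179.5, 122 and 161 TPM at WS_6h, 60.1, 55.7 and 80.6 TPM at WS_8h, 145, 119.8 and 109.8 TPM at WS_10h and 162, 84.2 and 112 TPM at WS_12h. WS_4h overlapped WS_2h here, since WS_4h replicate 2 was above WS_2h replicate 1, so the peak at WS_2h lay within the spread of libraries. Zm00001d026390 had 361, 479 and 360.4 TPM in the WS_2h libraries, against 4.05, 4.42 and 6.29 TPM in the WS_0h libraries, a log2 difference of 6.09 (SE 0.22). Its means declined at each step, 228, 153, 141, 109 and 85.3 TPM at WS_4h, WS_6h, WS_8h, WS_10h and WS_12h, although the libraries of neighbouring times overlapped from WS_6h on.

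Zm00001d029806, of rank 2, combined a sustained difference with a sharp peak. It had 107, 154 and 91.7 TPM in the WS_2h libraries, against 9.36, 11.5 and 8.61 TPM in the WS_0h libraries, a log2 difference of 3.43 (SE 0.24). Its values were 36.9, 26.8 and 26.8 TPM at WS_4h, 37.8, 31.5 and 31.3 TPM at WS_6h, 24.1, 29.9 and 49.5 TPM at WS_8h, 24.1, 30.4 and 27.2 TPM at WS_10h and 16.6, 28.0 and 24.6 TPM at WS_12h. The peak thus stood well apart from a later plateau that was itself above WS_0h in every library. The remaining 3 showed the same gap between WS_2h and WS_0h. Zm00001d006170 had 75.4, 126 and 83.5 TPM at WS_2h, against 2.58, 4.97 and 5.60 TPM at WS_0h. Zm00001d010751 had 133, 197 and 137 TPM at WS_2h, against 8.66, 8.86 and 11.4 TPM at WS_0h. Zm00001d031926 had 39.9, 51.8 and 36.2 TPM at WS_2h, against 2.84, 3.21 and 2.88 TPM at WS_0h. In each of these the WS_2h and WS_0h libraries were far apart, and the second highest mean was at WS_6h, with 50.6, 91.9 and 26.0 TPM in the order named.

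**Figure D4:**
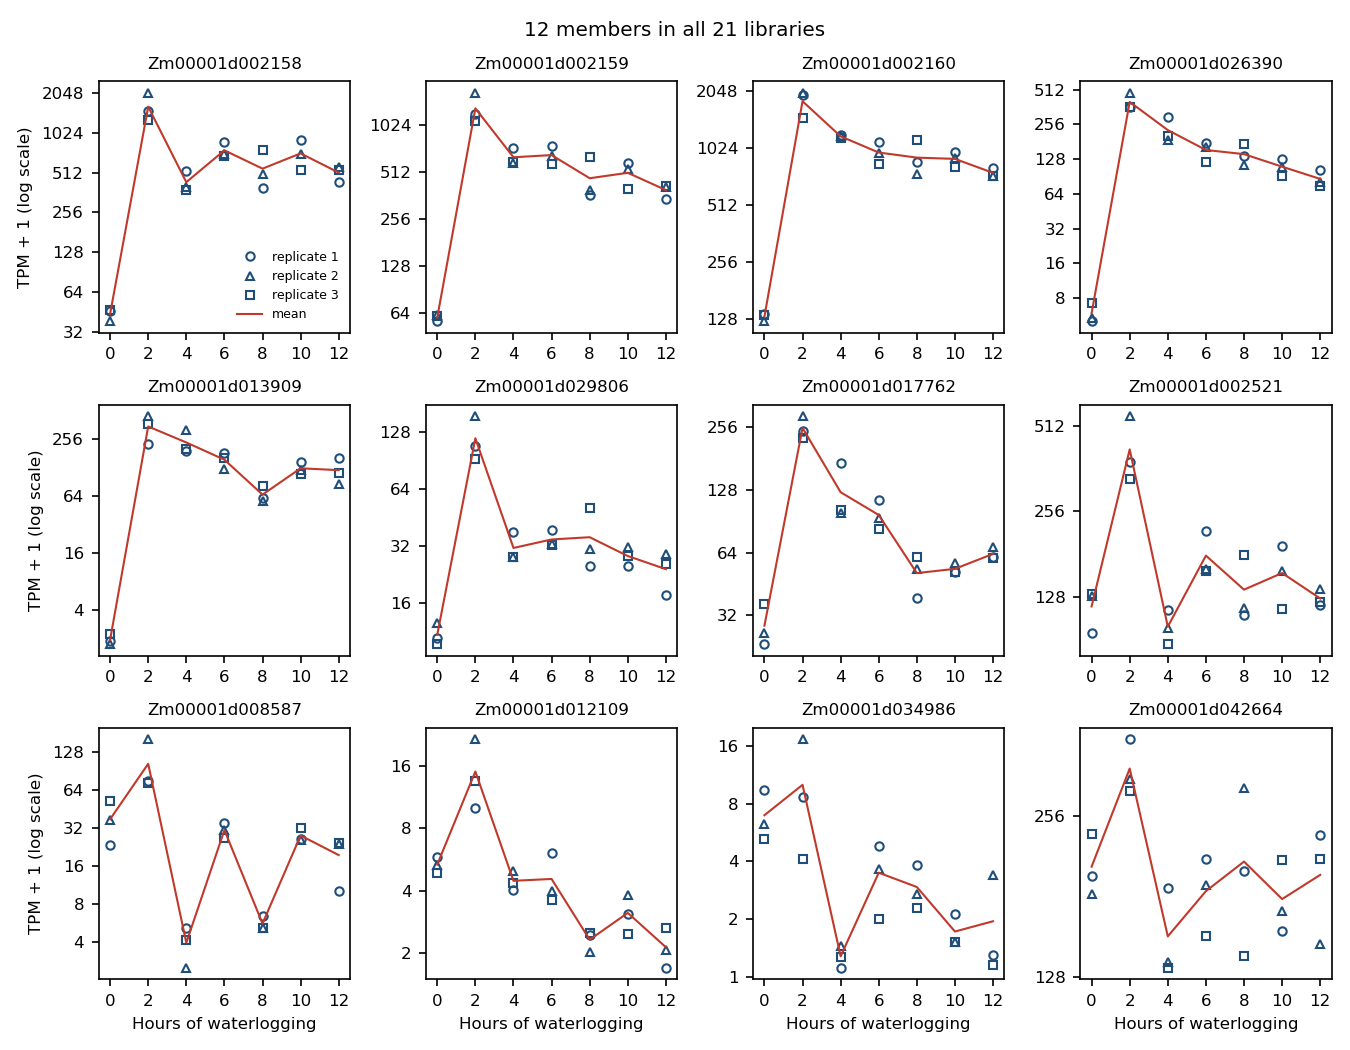
Hours of waterlogging on the x axis against TPM + 1 on a log scale on the y axis for 12 members, with a marker for each library by replicate and a line through the means. Genes called higher throughout, such as Zm00001d002158, stay above their WS_0h level after the peak, whereas Zm00001d008587 and Zm00001d034986 drop below it at WS_4h, and the triangle of replicate 2 is the top WS_2h marker in most panels.

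In the second profile 8 members were called higher at WS_2h and at 1 to 4 of the later times, beside 1.89% of all genes tested, with L at WS_2h between 1.82 and 3.21. Without WS_2h replicate 2, 7 of them kept this profile. They were Zm00001d017762, Zm00001d048293, Zm00001d039487, Zm00001d026029, Zm00001d032561, Zm00001d036610, Zm00001d026028 and Zm00001d034482. Zm00001d017762 had 245, 289 and 227 TPM in the WS_2h libraries, against 22.1, 25.2 and 35.1 TPM in the WS_0h libraries, a log2 difference of 3.18 (SE 0.22). Afterwards it had 172, 97.9 and 102 TPM at WS_4h, 113, 93.0 and 82.0 TPM at WS_6h, 37.7, 52.3 and 60.0 TPM at WS_8h, 50.5, 56.2 and 50.7 TPM at WS_10h and 59.9, 67.4 and 59.0 TPM at WS_12h. The 3 WS_2h libraries were above all others, and the decline ran over the first 8 h. Zm00001d026029 had 267, 340.5 and 188 TPM at WS_2h, against 52.5, 44.9 and 34.2 TPM at WS_0h, a log2 difference of 2.55 (SE 0.31). Its WS_4h libraries were split, with 246, 90.9 and 98.1 TPM, so that replicate 1 overlapped the WS_2h libraries and the other replicates did not. Its neighbour Zm00001d026028 had 124, 201 and 94.5 TPM at WS_2h, against 29.6, 40.5 and 24.7 TPM at WS_0h, and was close to the WS_0h values at WS_4h, with 48.5, 29.5 and 34.0 TPM, before means of 87.8, 77.6, 85.9 and 79.6 TPM at WS_6h, WS_8h, WS_10h and WS_12h.

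In the third profile 25 members were called higher at WS_2h and at no later time, beside 0.184% of all genes tested. Without WS_2h replicate 2 only 13 members had this profile, all of them among the 25, while without WS_2h replicate 1 or 3 there were 30 and 29, with 24 of the 25 in each. Their L at WS_2h was between 1.05 and 1.90, their median L at WS_4h was -0.53, and in 17 of them every WS_2h library was above the other 18. Of these 25, 6 were also called lower than WS_0h at WS_4h, beside 0.0527% of all genes tested with both calls, and 3 were without WS_2h replicate 2. The 6 were Zm00001d008587, Zm00001d052387, Zm00001d044327, Zm00001d043063, Zm00001d017357 and Zm00001d021900. The other 19 were Zm00001d012109, Zm00001d002521, Zm00001d028017, Zm00001d048841, Zm00001d020137, Zm00001d009171, Zm00001d018853, Zm00001d028400, Zm00001d005951, Zm00001d032186, Zm00001d053884, Zm00001d023413, Zm00001d051554, Zm00001d048021, Zm00001d004664, Zm00001d052233, Zm00001d042490, Zm00001d014737 and Zm00001d043270. By L at WS_4h 20 of the 25 were below WS_0h.

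Zm00001d008587 ranked first of all, with a rank value of 1.74. It had 74.8, 159.6 and 71.2 TPM in the WS_2h libraries, against 22.3, 35.6 and 51.5 TPM in the WS_0h libraries, a log2 difference of 1.43 (SE 0.36). Its later values were 4.20, 1.5 and 3.11 TPM at WS_4h, 34.2, 29.5 and 25.4 TPM at WS_6h, 5.44, 4.20 and 4.12 TPM at WS_8h, 25.1, 24.7 and 30.7 TPM at WS_10h and 9.07, 23.0 and 23.4 TPM at WS_12h. The WS_2h and WS_0h libraries did not overlap, but replicate 2 was far above the other WS_2h libraries, and the gene was no longer called without WS_2h replicate 2 (log2 difference 1.06), without WS_0h replicate 1 (1.13) or in a fit of these 2 time points alone (1.43). Below WS_0h it fell in every WS_4h and every WS_8h library, with a log2 difference of -3.24 (SE 0.36) at WS_4h, whereas at WS_6h and WS_10h its libraries overlapped those of WS_0h. At WS_12h replicate 1 was below the WS_0h libraries and the others were within their range.

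Zm00001d012109, of rank 3, had 9.05, 20.5 and 12.6 TPM at WS_2h, against 4.83, 4.31 and 3.89 TPM at WS_0h, a log2 difference of 1.42 (SE 0.25). It had 3.01, 4.00 and 3.37 TPM at WS_4h, 5.06, 3.0 and 2.60 TPM at WS_6h, 1.44, 1.02 and 1.5 TPM at WS_8h, 2.10, 2.81 and 1.46 TPM at WS_10h and 0.70, 1.07 and 1.63 TPM at WS_12h. Its WS_2h libraries were above all others, and its WS_8h, WS_10h and WS_12h libraries were all below those of WS_0h. Zm00001d052387 had 62.1, 58.7 and 29.6 TPM at WS_2h, against 18.4, 21.2 and 16.2 TPM at WS_0h, and its WS_4h libraries, at 1.83, 1.51 and 0.88 TPM, lay far below both. From WS_6h on its means were 20.5, 21.3, 21.1 and 16.3 TPM, near the 18.6 TPM of WS_0h, so that the loss at WS_4h was as short as the peak. This gene was no longer called at WS_2h without WS_2h replicate 2 (log2 difference 1.17).

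Zm00001d002521 was the most abundant of the 25 members called higher at WS_2h only. It had 382, 553 and 332 TPM at WS_2h, against 94.4, 128 and 130.4 TPM at WS_0h, a log2 difference of 1.82 (SE 0.23), and afterwards 114, 98.6 and 86.0 TPM at WS_4h, 218, 159 and 156 TPM at WS_6h, 109, 116 and 179 TPM at WS_8h, 192, 156 and 115 TPM at WS_10h and 119, 136 and 122 TPM at WS_12h. Its WS_2h libraries were above the other 18, and its next highest mean was at WS_6h, where all its libraries were above those of WS_0h. The lack of a call at WS_6h is thus no return to the level of WS_0h. At WS_4h, WS_8h, WS_10h and WS_12h its libraries overlapped those of WS_0h, with L of -0.24, 0.20, 0.39 and 0.09. Zm00001d048021 had 169.8, 413 and 220.0 TPM at WS_2h, against 68.4, 111 and 136 TPM at WS_0h, where WS_2h replicate 1 lay near the highest WS_0h library, and its call at WS_2h held neither without WS_2h replicate 2 (log2 difference 0.93 in place of 1.29) nor in a fit of these 2 time points alone (1.29). A low level was that of Zm00001d018853, with 3.35, 4.74 and 2.77 TPM at WS_2h, against 0.33, 0.20 and 0.18 TPM at WS_0h, chosen for mention after its values were seen. On the log2(TPM + 1) scale its difference of 1.88 understates the ratio of so low a gene.

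In the fourth profile, the largest, 58 members were not called higher at WS_2h, beside 95.8% of all genes tested, and 71 were not without WS_2h replicate 2. Their L there was between 0.50 and 1.57 with a median of 0.64, 14 of them had an adjusted p under 0.05 with a difference too small for a call, and in 19 every WS_2h library was nonetheless above the other 18. Of these 58, 56 were below WS_0h at WS_4h by L, and their median L at that time was -1.36. With a low L at WS_2h the rule itself asks for low later values.

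Of the 58, 40 were called lower than WS_0h at WS_4h, beside 23.6% of all genes tested with the same 2 outcomes. Their L at WS_4h ran between -4.25 and -1.07 with a median of -1.74, and over the 6 waterlogged time points in order their median was 0.64, -1.74, -0.31, -0.83, -0.47 and -0.52. They were Zm00001d034986, Zm00001d030997, Zm00001d021208, Zm00001d002052, Zm00001d006211, Zm00001d002064, Zm00001d021655, Zm00001d017195, Zm00001d043674, Zm00001d047194, Zm00001d047743, Zm00001d052205, Zm00001d011377, Zm00001d011846, Zm00001d015468, Zm00001d028093, Zm00001d048416, Zm00001d006493, Zm00001d047814, Zm00001d051313, Zm00001d021457, Zm00001d052914, Zm00001d014007, Zm00001d022327, Zm00001d012402, Zm00001d015664, Zm00001d012520, Zm00001d005459, Zm00001d034186, Zm00001d006525, Zm00001d004509, Zm00001d007421, Zm00001d019312, Zm00001d012255, Zm00001d052946, Zm00001d045584, Zm00001d034783, Zm00001d036735, Zm00001d049201 and Zm00001d051235. The other 18 were called neither higher at WS_2h nor lower at WS_4h, with a median L of 0.72 at WS_2h and -0.50 at WS_4h. They were Zm00001d018396, Zm00001d001756, Zm00001d040562, Zm00001d020400, Zm00001d011473, Zm00001d045679, Zm00001d052530, Zm00001d027932, Zm00001d041535, Zm00001d002079, Zm00001d003363, Zm00001d018698, Zm00001d032459, Zm00001d042664, Zm00001d028478, Zm00001d012292, Zm00001d048310 and Zm00001d027423.

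Zm00001d034986, of rank 4, shows how far a rank could rest on a single library. It had 7.67, 16.3 and 3.11 TPM in the WS_2h libraries, against 8.38, 5.23 and 4.26 TPM in the WS_0h libraries, so that WS_2h spanned WS_0h on both sides. Its log2 difference was 0.33 (SE 0.45), and -0.18 without WS_2h replicate 2. The later values were 0.12, 0.46 and 0.27 TPM at WS_4h, 3.82, 2.65 and 1.01 TPM at WS_6h, 2.84, 1.70 and 1.29 TPM at WS_8h, 1.13, 0.53 and 0.52 TPM at WS_10h and 0.30, 2.40 and 0.16 TPM at WS_12h. Every library from WS_4h on was below every WS_0h library.

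Zm00001d030997 had 18.1, 24.6 and 16.9 TPM at WS_2h, against 13.4, 9.82 and 11.4 TPM at WS_0h. Its log2 difference of 0.73 (SE 0.29, adjusted p 0.14 by limma) met neither limit for a call, although the libraries did not overlap. At WS_4h it fell to 0.34, 0.65 and 0.12 TPM, a log2 difference of -3.20 (SE 0.29) from WS_0h. Later means were 6.93, 5.02, 7.36 and 5.29 TPM at WS_6h, WS_8h, WS_10h and WS_12h. Zm00001d021208 had 74.6, 146 and 94.0 TPM at WS_2h, against 27.5, 62.9 and 57.6 TPM at WS_0h. Its WS_4h libraries had 11.2, 13.6 and 8.53 TPM. Zm00001d002052 had 29.4, 35.3 and 26.8 TPM at WS_2h, against 21.4, 19.1 and 17.9 TPM at WS_0h. Its WS_4h libraries had 3.44, 5.66 and 4.82 TPM. In both, the WS_4h libraries lay below all WS_0h libraries and the WS_2h libraries above them. Zm00001d006211 had 6.35, 16.8 and 10.8 TPM at WS_2h, against 3.90, 8.18 and 8.56 TPM at WS_0h, and the groups overlapped, while its WS_4h libraries at 1.13, 1.25 and 1.09 TPM were below both.

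The deepest losses at WS_4h among the members were in genes with a modest value at WS_2h, chosen for mention after their values were seen. Zm00001d006493 had 0.18, 1.0 and 1.29 TPM at WS_4h, against 36.1, 31.0 and 33.8 TPM at WS_0h, a log2 difference of -4.30 (SE 0.30), and 52.1, 60.7 and 43.2 TPM at WS_2h. Zm00001d019312 had 5.69, 12.2 and 11.3 TPM at WS_4h, against 153, 185 and 181 TPM at WS_0h, a log2 difference of -4.08 (SE 0.32), and 283, 286 and 169 TPM at WS_2h. At WS_6h their means were 22.3 and 161 TPM, and in Zm00001d019312 replicate 3 of WS_2h lay among the WS_0h libraries. Zm00001d042664, the only uncalled member among the 10 most abundant at WS_2h, differed from the others in that replicate 1 was its highest WS_2h library, with 354, 299 and 284 TPM at WS_2h, against 197, 182 and 235 TPM at WS_0h. Its later means, 151 to 209 TPM, spanned the WS_0h mean of 205 TPM.

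The limit of the list fell in a dense stretch of rank values. Only 24 of the 100 members had a rank value above 1, the median was 0.74, and the last member stood at 0.526. The last 5 inside were Zm00001d012292 (rank value 0.540), Zm00001d048310 (0.537), Zm00001d051235 (0.532), Zm00001d027423 (0.528) and Zm00001d043270 (0.526). The first 5 outside were Zm00001d037165 (0.522), Zm00001d036835 (0.521), Zm00001d026191 (0.520), Zm00001d021955 (0.516) and Zm00001d034163 (0.516). Zm00001d043270, the last inside, had 14.1, 18.6 and 15.9 TPM at WS_2h, against 6.00, 7.78 and 8.04 TPM at WS_0h, and Zm00001d037165, the first outside, had 6.74, 12.5 and 9.02 TPM at WS_2h, against 4.23, 4.71 and 6.45 TPM at WS_0h. The step between them is no boundary in the data. Of these last 5 inside, Zm00001d043270 alone was called higher at WS_2h, with a log2 difference of 1.06 (SE 0.13), and fell just under the size needed for a call without WS_2h replicate 2 (0.96) and without WS_0h replicate 1 (0.94).

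When the rule was applied again with a library left out, membership moved most with the WS_2h libraries. Without WS_2h replicate 1, 2 or 3 the rule chose 68, 58 and 71 of the 100 again, without a WS_0h library 83, 88 and 81, and without any other library 92 to 99. Of the 42 members lost without replicate 2, 32 had an L at WS_2h of 0.5 or less from the other libraries, and the median L of all 100 at WS_2h was then 0.69. The rule chose 32 members whichever WS_2h library was left out, and 31 of them also whichever of all 21 libraries was left out. These 32 comprised 6 of the 9 members called higher throughout, 4 of the 8 called higher at some later times, 15 of the 25 called higher at WS_2h only and 7 of the 58 not called at WS_2h, and in 25 of the 32 all WS_2h libraries were above the other 18. Among the 10 members of largest rank value, Zm00001d034986 and Zm00001d006211 were not in this set.

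**Figure D5:**
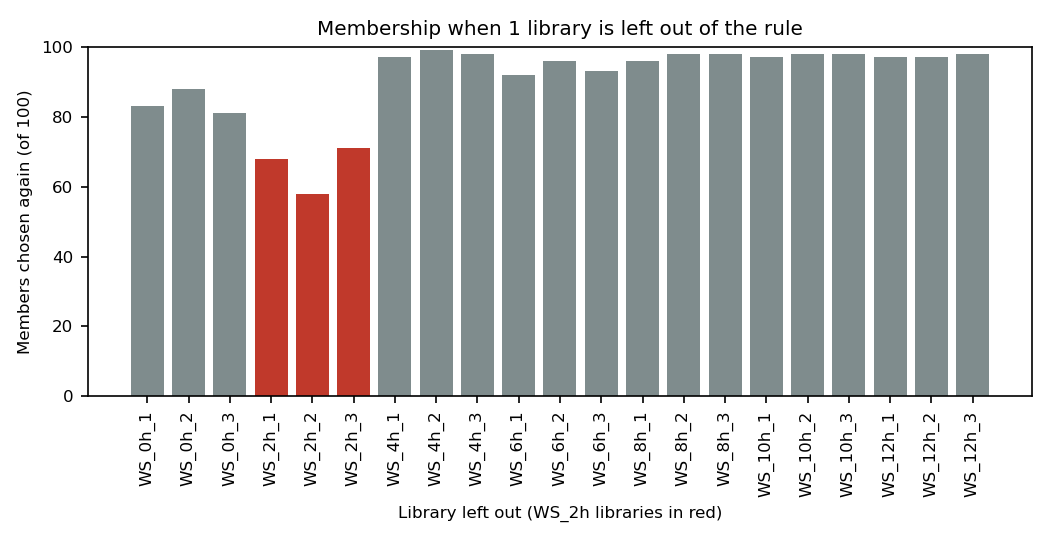
Bars give how many of the 100 members the rule chose again (y axis, from 0) when the library named on the x axis was left out, with the WS_2h libraries in red. The red bars stand at 68, 58 and 71, the WS_0h bars at 83, 88 and 81 and all others between 92 and 99.

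None of the oxygen-shortage genes that the study names is among the members. The 7 glycolysis and fermentation genes it names include those for pyruvate decarboxylase, the first enzyme of ethanol fermentation, and hexokinase, which starts glycolysis. All 7 were called higher at WS_2h, where 4.18% of all genes tested were, with a median log2 difference of 1.35. The study had named them as changed in these same libraries, so these calls are no independent result. Of the 7, 0 had the highest mean at WS_2h. Pyruvate decarboxylase gene Zm00001d028759 had 579, 843 and 679 TPM at WS_2h, against 85.9, 85.9 and 90.9 TPM at WS_0h, and its means afterwards were 2587, 2241, 1018, 1711 and 1537 TPM at WS_4h, WS_6h, WS_8h, WS_10h and WS_12h. Its highest mean was at WS_4h, where 38.0% of all genes tested had their highest L. The lowest mean was at WS_4h in 63 of the 100 members, beside 39.8% of all genes tested, and the rule draws later values of members down. WS_2h replicate 2 was the highest of the WS_2h libraries in 3 of these 7 genes and in 11 of the 15 transcription factors described next. It was highest in 37.1% of all genes tested and in 91 of the 100 members, a count that the rule itself can raise.

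Of 15 transcription factors named in the study and tested, 9 were called higher at WS_2h and 1 lower, with a median log2 difference of 1.5. Of all genes tested, 4.18% were called higher. The study had named these factors too as changed in the same libraries, so the calls are no independent result. The nearest to membership was Zm00001d027987, a gene of the bHLH family of transcription factors, of rank 130 with a rank value of 0.439. It had 80.8, 107 and 77.8 TPM at WS_2h, against 5.88, 5.98 and 5.22 TPM at WS_0h, and its L was 3.74 at WS_2h and 3.30 at its next highest time, WS_6h. Its libraries at WS_2h were far above WS_0h, but the later means, between 35.6 and 65.0 TPM, stayed high. Zm00001d026060, which codes for an ACC synthase, the enzyme that makes the direct precursor of ethylene, came close to the members' course without a peak at WS_2h. Its means were 9.45, 24.5, 4.71, 24.9, 10.3, 16.7 and 15.2 TPM over the 7 times in order, high at WS_2h, low at WS_4h and as high again at WS_6h.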

How the data were processed

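RNA from the root tips was sequenced as stranded libraries. The deposited values are TPM, which the authors made from read counts of featureCounts after HISAT2 (2.0.5) alignment to B73 RefGen_v4. According to the study, only reads with a unique alignment entered the TPM. The study sets a limit on TPM for a gene to count as expressed, and 392 of the listed genes had a mean of 1 TPM or less over the 21 libraries. The table of long non-coding RNAs was not used here. TPM carry no read depth. Libraries were placed in their time points by their labels, and no sample was left out.

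Genes with a mean above 1 TPM were fitted as log2(TPM + 1) by limma (version 3.58.1, under R 4.3.3) over all 21 libraries, with time point means, a mean-variance trend and no replicate block. Tables were made with Python 3.11.15, pandas 2.3.3 and numpy 2.4.6, and drawings with matplotlib 3.10.9. The fit was tested on simulated data. The members and the lists were chosen with earlier results of these data known.

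Genes named were, by rule, the 10 members of largest rank value, the 10 most abundant at WS_2h, members not called at WS_2h, and the last 5 inside and first 5 outside the limit. The other members are named by profile, which was added after the values were seen. Lists by gene description, cell type markers, promoter motifs and sequences could not be run, because 0 of the 100 members had an entry in the reference table used, and coordinates are not in the values. Alternatives were a pseudocount of 0.1 TPM, other filters, medians or means of logs in the rule, rescaling, fits without the trend or of only the time points compared, a replicate block, and each library left out. Membership without each WS_2h library in turn was added after the data were seen.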

Additional observations from a re-analysis of the deposited data

How the results depend on the processing

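Counts of members moved beyond 1.5 times in few settings. With only genes above a mean of 5 TPM, 3 members were called lower at WS_10h than at WS_0h (5 otherwise) and 3 lower at WS_12h (6 otherwise), since 77 members were then available. In a fit of only the time points compared, 1 member was called lower at WS_6h than at WS_0h (0 otherwise). With each library left out in turn, the number of members called higher at WS_2h ranged between 29 and 47, called lower than WS_0h between 0 and 1 at WS_6h, 11 and 22 at WS_8h, 3 and 6 at WS_10h and 6 and 9 at WS_12h, and called lower than WS_2h between 15 and 39 at WS_6h and 31 and 60 at WS_10h. The rule chose 66 of the 100 again from medians of the libraries, 58 to 99 with a library left out, and 32 in the alternative added after the data were seen, and at least 77 under the other alternatives. The other counts, profiles aside, stayed within 1.5 times. Members called higher at WS_2h only moved from 25 to 13 without WS_2h replicate 2. Those called higher at WS_2h and lower at WS_4h moved from 6 to 3 without WS_2h replicate 2, and to 10 without WS_2h replicate 1.

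Of the single members 29 changed call or sign at WS_2h under some alternative. Without WS_2h replicate 2, 13 lost their call, without WS_0h replicate 1, 7 did, and in a fit of only the time points compared, 6 did. The log2 difference turned negative without WS_2h replicate 2 for Zm00001d034986 (-0.18, range over left-out libraries up to 0.86) and Zm00001d052914 (-0.092, up to 1.15) and without WS_0h replicate 1 for Zm00001d028478 (-0.013, up to 1.29). With all 21 libraries these 3 were not called, and the cause was not tested.

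With the replicate number as a block, 44 members were called higher at WS_2h (42 without it), 46 lower at WS_4h than at WS_0h (46) and 1 lower at WS_6h than at WS_0h (0). Whether the numbers pair the libraries is not settled by these values, and the main fit did not pair them. Deviations of same-numbered libraries correlated between -0.26 and 0.62 over 63 pairs, with a median of 0.01 and 19 pairs above 0.1. Those of differently numbered libraries correlated between -0.59 and 0.37 over 126 pairs, with a median of -0.03 and 30 pairs above 0.1. On average, 12 of 21 libraries correlated best with their own number.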
